A study of Mus musculus with 3 samples.

Results

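The genes Bcl6, S1pr2, Mybl1, Rgs13, Gcsam, Fas, Pdcd1 and Mef2b, which mark germinal centre B cells and T follicular helper cells, were described in inguinal lymph nodes of mice treated with hydroxylated vitamin D3. They were found by symbol in the deposited gene table, where each matched 1 row, so 8 of 46951 loci are described. RNA came from male C57BL/6j mice, and there was 1 library in each of 3 groups. Every mouse, controls included, had DNFB (dinitrofluorobenzene, a contact sensitizer) applied to the abdominal skin. From 3 days later the animals of the vehicle group were injected intraperitoneally with ethanol, and the others with one of the compounds, 20(OH)D3 and 25(OH)D3, each dosed at 4 µg/kg daily. Sample labels state 4 daily injections with collection 24 hours after the last of them, while the series text states 1 week. The compounds are vitamin D3 with a hydroxyl group on different side-chain carbons. The labels do not say whether a library holds RNA of 1 animal or of several, and they give no age.

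Germinal centres are the sites in lymphoid follicles where activated B cells divide, mutate their antibody genes and are selected with help from T follicular helper cells. BCL6, a transcriptional repressor, is required for the identity of both cell types and is opposed by BLIMP-1, the product of Prdm1, which drives plasma cell differentiation. Contact sensitizers act on the lymph nodes that drain the treated skin.

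With a single library in a group no test was possible, and every difference below describes these libraries. Reads per library numbered 8226431 for vehicle, 7522550 for 20(OH)D3 and 7991748 for 25(OH)D3. Ratios are of normalized counts, with exact 95% intervals that hold only the error of counting. Levels of different genes are compared as FPKM, which is scaled to transcript length. A locus was called higher or lower when its ratio was at least 1.5-fold from 1. Of the 8 genes, 7 had at least 50 reads over the libraries, and Rgs13 did not. In the 20(OH)D3 library the B cell markers summed to 37043 normalized counts, against 41043 with vehicle and 42742 with 25(OH)D3, and all 10 of them had reads. The 10 T cell markers summed to 11952, 10313 and 12597 in the vehicle, 20(OH)D3 and 25(OH)D3 libraries. The 10 adipocyte markers summed to 16324, 67711 and 30305 in the same order, so that fat transcripts moved with the treatment groups. Their part in the results below was not tested. In such bulk tissue fewer cells of a type and less RNA per cell cannot be told apart.

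In the 25(OH)D3 library 3 of the 8 genes were at least 1.5-fold lower than with vehicle. Bcl6, Fas, Pdcd1 and the locus of Mef2b stayed within 1.5-fold, as did Rgs13, which had few reads. S1pr2, Mybl1 and Gcsam were the members called lower in the 25(OH)D3 library, 3 of 8, whereas 3.35% of the 13286 loci with at least 50 reads were at least 1.5-fold lower there. In the 20(OH)D3 library the same genes had ratios below 1, and Mybl1 alone was called lower, 1 of 8 against 3.91% of loci. No member was called higher in either comparison, where 4.72% of loci were higher with 25(OH)D3 and 11.5% with 20(OH)D3. Among loci with 150 to 600 reads, a range chosen after the values were seen, 3.89% were lower with 25(OH)D3 and 4.87% with 20(OH)D3.

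**Figure D1:**
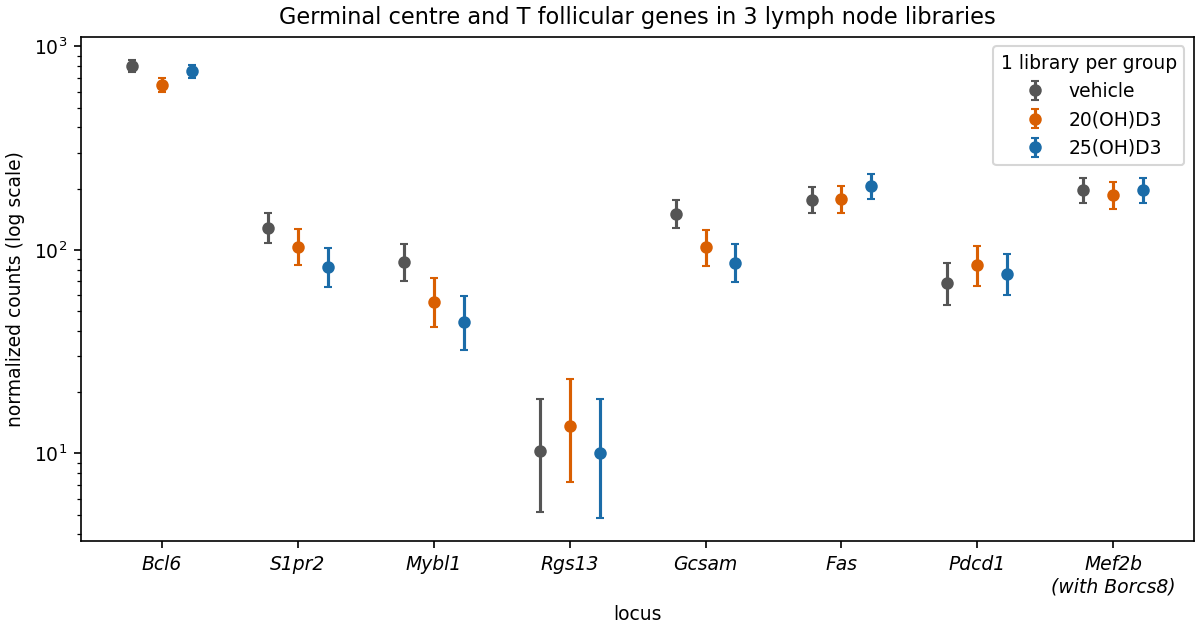
Normalized counts (log axis) of the 8 loci in the vehicle, 20(OH)D3 and 25(OH)D3 libraries, 1 point per library with its exact 95% Poisson interval for counting error. S1pr2, Mybl1 and Gcsam are highest in the vehicle library and lowest in the 25(OH)D3 library, and Rgs13 lies near 10 in all 3.

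S1pr2 encodes the sphingosine-1-phosphate receptor that holds B cells and T follicular helper cells within the germinal centre by signalling through the G protein subunit encoded by Gna13. Its locus lies on chromosome 9 (GRCm38, 20965952 to 20976793) and had 137 reads with vehicle, 99 with 20(OH)D3 and 82 with 25(OH)D3. These correspond to 5.60, 4.53 and 3.60 FPKM. The vehicle library was highest and the 25(OH)D3 library lowest. The ratio of 25(OH)D3 to vehicle was 0.642 (interval 0.482 to 0.850), which is 1.56-fold lower. For 20(OH)D3 the ratio was 0.809, and its interval of 0.618 to 1.05 held 1.

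Mybl1 encodes A-MYB, a transcription factor of the MYB family found in dividing germinal centre B cells. Its locus (chromosome 1, 9667415 to 9700209) had 93 reads with vehicle, 53 with 20(OH)D3 and 44 with 25(OH)D3, or 2.201, 1.54 and 1.28 FPKM. The vehicle library again stood above both treated libraries, and these lay close together. The ratio was 0.508 (0.346 to 0.734) for 25(OH)D3 and 0.638 (0.446 to 0.903) for 20(OH)D3. Mybl1 was thus 1.97-fold lower with 25(OH)D3, the lowest ratio of the 8 genes, and 1.57-fold lower with 20(OH)D3. By FPKM the ratio for 20(OH)D3 was 0.701, which does not reach 1.5-fold.

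Gcsam encodes a membrane adaptor of germinal centre B cells that acts on cell motility and on B cell receptor signalling. Its locus (chromosome 16, 45610380 to 45622867) had 160 reads with vehicle, 98 with 20(OH)D3 and 86 with 25(OH)D3. The levels were 5.50, 3.95 and 3.75 FPKM. Both treated libraries lay below vehicle. The ratio was 0.577 (0.438 to 0.754) for 25(OH)D3 and 0.685 (0.527 to 0.887) for 20(OH)D3. By FPKM the ratio for 25(OH)D3 was 0.682, so on that scale Gcsam was not called lower.

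Rgs13 encodes a regulator of G protein signalling that dampens the response of germinal centre B cells to chemokines. Its locus (chromosome 1, 144138654 to 144177372) had 11, 13 and 10 reads in the vehicle, 20(OH)D3 and 25(OH)D3 libraries. At this depth no difference was detectable. The ratio to vehicle was 0.975 (interval 0.371 to 2.53) for 25(OH)D3 and 1.32 (interval 0.547 to 3.26) for 20(OH)D3, and the ratios of Mybl1 lie within these intervals.

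Bcl6 (chromosome 16, 23965052 to 23988852) had 858 reads with vehicle, 616 with 20(OH)D3 and 751 with 25(OH)D3, and levels of 27.5, 22.1 and 25.9 FPKM. It was lowest in the 20(OH)D3 library, unlike S1pr2, Mybl1 and Gcsam. The ratio was 0.803 (0.723 to 0.892) for 20(OH)D3 and 0.939 (0.850 to 1.04) for 25(OH)D3, both within 1.5-fold. The summed B cell markers had a ratio of 0.903 and the T cell markers of 0.863 in the 20(OH)D3 library. Bcl6 divided by the B cell markers had a ratio of 0.890 (0.801 to 0.988) for 20(OH)D3 and of 0.902 (0.817 to 0.996) for 25(OH)D3.

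Fas and Pdcd1 act in selection and restraint. Fas encodes the death receptor CD95, high on germinal centre B cells and present on activated T cells, and it is not the fatty acid synthase gene Fasn. Its locus (chromosome 19, 34290659 to 34327770) had 188 reads with vehicle, 169 with 20(OH)D3 and 204 with 25(OH)D3, and 16.0, 18.6 and 18.6 FPKM. The ratio to vehicle was 1.01 (0.812 to 1.24) for 20(OH)D3 and 1.16 (0.9502 to 1.43) for 25(OH)D3. By FPKM it was 1.17 for both compounds.

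Pdcd1 encodes PD-1, an inhibitory receptor carried at high levels by T follicular helper cells and at lower levels by other activated T cells. Its locus (chromosome 1, 94038305 to 94052553) had 73, 80 and 76 reads in the vehicle, 20(OH)D3 and 25(OH)D3 libraries, and 4.50, 5.51 and 5.04 FPKM. The ratio to vehicle was 1.23 (0.882 to 1.71) for 20(OH)D3 and 1.12 (0.799 to 1.56) for 25(OH)D3. Divided by the summed T cell markers, Pdcd1 had a ratio of 1.42 (1.02 to 1.98) for 20(OH)D3 and of 1.06 (0.758 to 1.48) for 25(OH)D3.

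**Figure D2:**
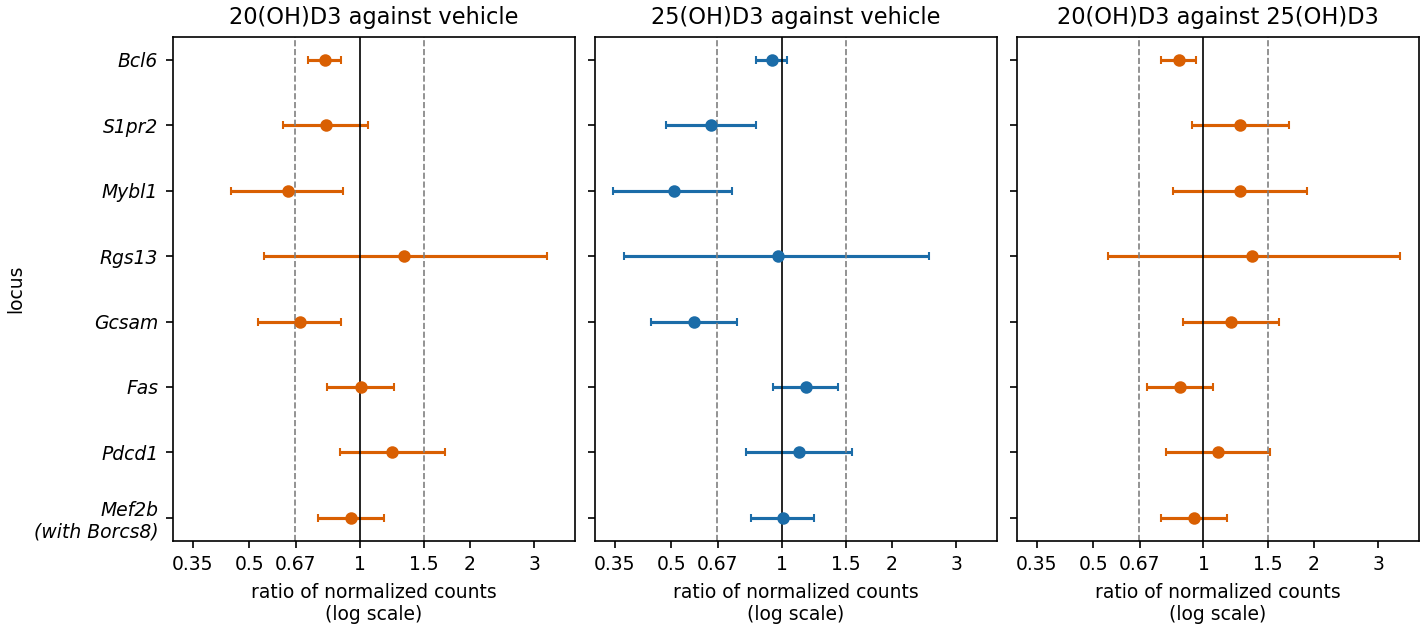
Ratio of normalized counts (log axis) of each locus in 3 comparisons, with exact 95% intervals for counting error. The solid line marks 1 and the dashed lines 1.5-fold in either direction. S1pr2, Mybl1 and Gcsam lie beyond the lower line for 25(OH)D3 against vehicle, at 0.642, 0.508 and 0.577.

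Mef2b, a MADS-box transcription factor that activates BCL6 in human germinal centre B cells, could not be read by itself. Its row also carries Borcs8, a subunit gene of a lysosome-positioning complex (joint locus on chromosome 8, 70139499 to 70167488). The joint locus had 209 reads with vehicle, 177 with 20(OH)D3 and 196 with 25(OH)D3, and 37.8, 36.2 and 38.3 FPKM. The ratios to vehicle were 0.948 (0.771 to 1.16) and 1.01 (0.824 to 1.23) for 20(OH)D3 and 25(OH)D3. The transcript length implied by its counts and FPKM was 673, 651 and 640 bases in the vehicle, 20(OH)D3 and 25(OH)D3 libraries. In GENCODE M21 the transcripts of Borcs8 measure 679 to 864 bases and those of Mef2b 1223 to 1342 bases. For Pdcd1, with 1 annotated transcript of 1930 bases, the implied lengths were 1973.8, 1928.5 and 1887.9 bases in the same order. The length was computed by dividing by each library's total of normalized counts, which rose from 7712900 to 7891400 and 8039200 in that order. That calculation alone gives a small fall over the libraries, also for a gene with 1 annotated transcript. The share of reads that belong to Mef2b was not tested.

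**Figure D3:**
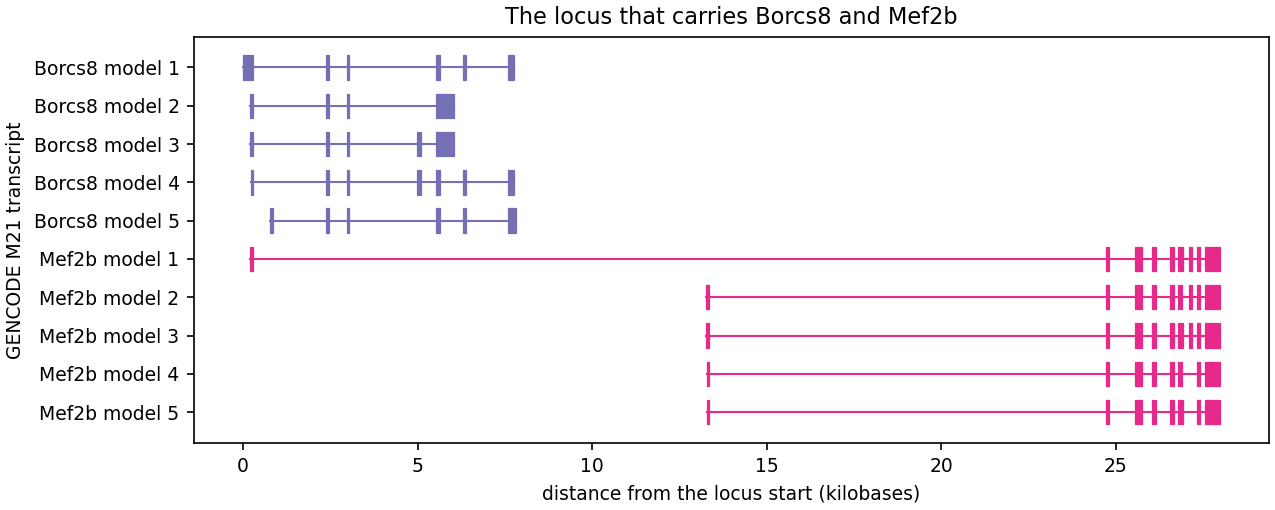
Exons (boxes) and introns (lines) of the GENCODE M21 transcripts of Borcs8 and Mef2b, plotted as distance from the start of the joint locus in kilobases. Each gene has 5 models, and 1 Mef2b model begins where the first exons of Borcs8 lie.

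By length-scaled level the order was Mef2b with Borcs8, Bcl6, Fas, then S1pr2, Gcsam and Pdcd1, then Mybl1 and Rgs13 in the vehicle library. There the intervals of S1pr2, Gcsam and Pdcd1 overlapped one another (5.60, 5.50 and 4.50 FPKM). Those of Fas and S1pr2 did not overlap, nor did those of Pdcd1 and Mybl1. In the treated libraries Pdcd1 came before S1pr2 and Gcsam, again with overlapping intervals. Bcl6 and Fas overlapped only in the 20(OH)D3 library (22.1 and 18.6 FPKM), and Mybl1 and Rgs13 overlapped in both treated libraries.

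The compounds were next set against each other at equal dose and time, in 8 pairs of values. No member was called, beside 9.94% of loci at least 1.5-fold higher and 4.48% lower with 20(OH)D3. The interval excluded 1 for Bcl6 only, with a ratio of 20(OH)D3 to 25(OH)D3 of 0.855 (0.768 to 0.953). S1pr2 had a ratio of 1.26 (0.930 to 1.71), Mybl1 of 1.26 (0.826 to 1.92) and Gcsam of 1.19 (0.880 to 1.61). These intervals include both equality and differences beyond 1.5-fold. Fas had a ratio of 0.864 (0.700 to 1.06), Pdcd1 of 1.10 (0.792 to 1.52) and the locus of Mef2b and Borcs8 of 0.942 (0.764 to 1.16). For Rgs13 the ratio was 1.36 (0.549 to 3.45). Per unit of B cell markers, S1pr2 was 1.45 (1.07 to 1.97) and Gcsam 1.37 (1.02 to 1.85) in this comparison, within 1.5-fold, while Rgs13 was past it at 1.56 with an interval of 0.634 to 3.99. Per unit of T cell markers, S1pr2 was past 1.5-fold at 1.54 (1.14 to 2.09), Mybl1 at 1.53 (1.01 to 2.34) and Rgs13 at 1.66 (0.671 to 4.22), and Gcsam was at 1.45 (1.08 to 1.96).

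Over the 8 genes the median log2 ratio was -0.19 for 20(OH)D3 and -0.06 for 25(OH)D3 against vehicle, and 0.19 for 20(OH)D3 against 25(OH)D3. Over the 13286 loci the medians were -0.02, 0.01 and -0.02. The median for 25(OH)D3 hides a split within the list, whose log2 ratios ran from -0.98 in Mybl1 to 0.22 in Fas. The comparisons with vehicle share that library, so a high count in it lowers both ratios of a gene.

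Dividing by the summed B cell markers left the ratios to vehicle for 25(OH)D3 at 0.617 (0.463 to 0.817) for S1pr2, 0.487 (0.333 to 0.705) for Mybl1 and 0.554 (0.421 to 0.724) for Gcsam. For 20(OH)D3 the same division gave 0.896 (0.685 to 1.17), 0.706 (0.494 to 1.00) and 0.759 (0.584 to 0.982). On this scale no member was called lower for 20(OH)D3, while 3 remained called for 25(OH)D3.

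Other genes of the germinal centre B cell were compared by a list of 11, of which 10 had at least 50 reads. With 20(OH)D3, 3 of the 10 were called lower and none higher, beside 3.91% of all loci called lower and 11.5% higher, and the median log2 ratio was -0.30. With 25(OH)D3, 1 was called lower and none higher, beside 3.35% and 4.72% of all loci, and the median was -0.04. Ratios to vehicle were above 1 for 4 of the 10 genes with 20(OH)D3 and for 3 with 25(OH)D3. The highest were Efnb1 at 1.32 (1.07 to 1.62) with 20(OH)D3 and Myc at 1.34 (1.21 to 1.49) with 25(OH)D3. Rassf6, a RAS-association domain gene, had 88 reads with vehicle, 45 with 20(OH)D3 and 42 with 25(OH)D3. Its ratios to vehicle were 0.572 (0.390 to 0.828) and 0.512 (0.346 to 0.748), so it was called lower for both compounds. Neil1, a DNA glycosylase gene of base excision repair, had 163, 97 and 149 reads in the vehicle, 20(OH)D3 and 25(OH)D3 libraries. It was called lower for 20(OH)D3, at 0.666 (0.512 to 0.861), and had a ratio of 0.981 (0.780 to 1.23) for 25(OH)D3. Hmces, whose protein binds abasic sites in DNA, had 238, 140 and 176 reads in that order. Its ratio was 0.658 (0.530 to 0.814) for 20(OH)D3, where it was called, and 0.793 (0.649 to 0.968) for 25(OH)D3. Nuggc, a nuclear GTPase of germinal centre B cells, had 24, 10 and 4 reads, under the minimum, and was singled out after its values were seen. Its ratio for 25(OH)D3 was 0.179, with an interval of 0.0451 to 0.520.

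Of 7 genes of hypermutation and its repair, 2 were called lower with 20(OH)D3 and 1 with 25(OH)D3, none higher, beside 3.91% and 3.35% of all loci called lower. Msh6, a mismatch recognition subunit, had 529 reads with vehicle, 311 with 20(OH)D3 and 423 with 25(OH)D3, and ratios of 0.658 and 0.858 to vehicle. The exonuclease gene Exo1 had 54, 31 and 30 reads and ratios of 0.642 (0.399 to 1.02) and 0.596 (0.368 to 0.948). Ung, a uracil glycosylase gene, had the highest ratios to vehicle of this list, with 106, 100 and 119 reads.

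**Figure D4:**
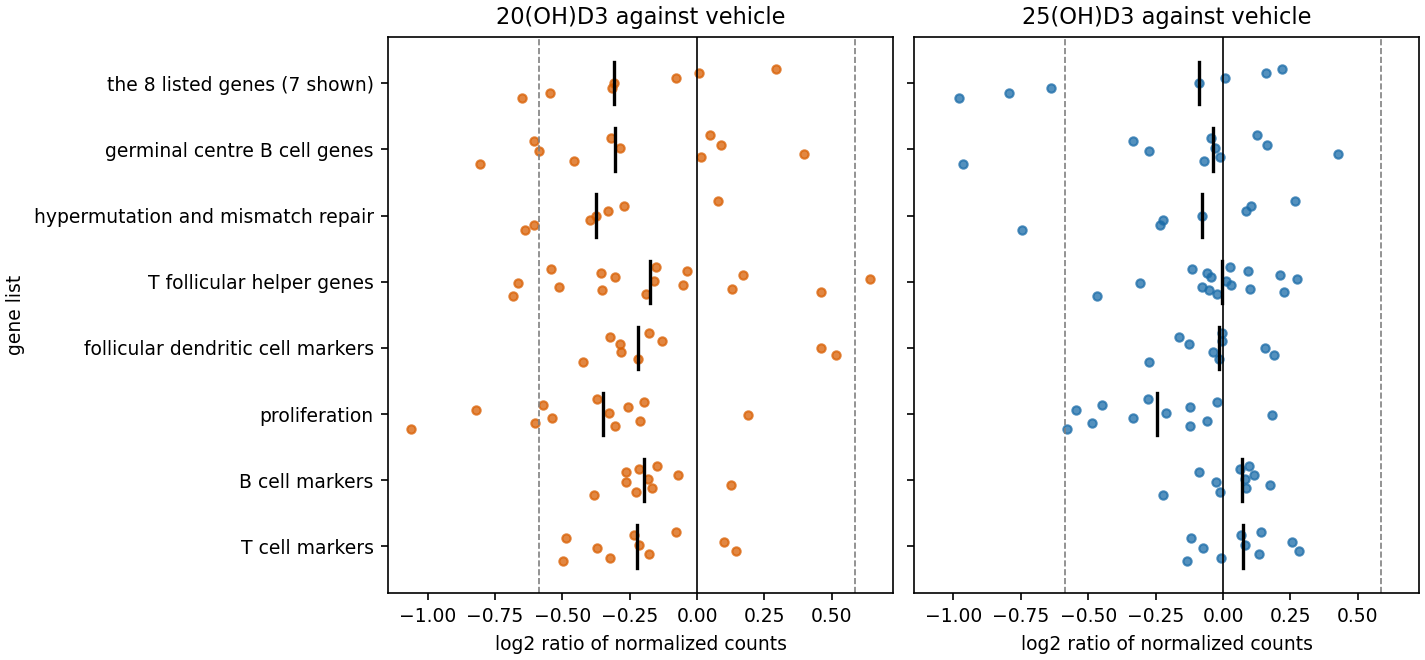
Log2 ratio of normalized counts to vehicle for members of 8 gene lists with at least 50 reads, 1 point per gene, with the list median as a black bar, zero as a solid line and 1.5-fold as dashed lines. B cell markers centre at -0.20 for 20(OH)D3 and at 0.07 for 25(OH)D3, and S1pr2, Mybl1 and Gcsam form the low points of the top row on the right.

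Division genes were also compared. Of 12 proliferation genes 11 had ratios below 1 for each compound, beside 52.8% of all loci for 20(OH)D3 and 48.0% for 25(OH)D3, with summed normalized counts of 2634 with vehicle, 1969 with 20(OH)D3 and 2209 with 25(OH)D3. The sum was lowest with 20(OH)D3. S1pr2, Mybl1 and Gcsam were lowest with 25(OH)D3, but their intervals for 20(OH)D3 against 25(OH)D3 all held 1. Of the proliferation genes, 3 were called lower and none higher for 20(OH)D3, and none was called for 25(OH)D3. Of all loci 3.91% and 3.35% were called lower. The 3 were Mki67, Ccnb2 and Bub1. Mki67, the Ki-67 antigen gene, had 875, 516 and 647 reads in the vehicle, 20(OH)D3 and 25(OH)D3 libraries. Ccnb2, a mitotic cyclin gene, had 112, 48 and 86 reads and a ratio of 0.480 (0.335 to 0.678) for 20(OH)D3. Bub1, a spindle checkpoint kinase gene, had 77, 39 and 48 reads and a ratio of 0.567 (0.375 to 0.844). Cdk1, the mitotic kinase gene, had ratios above 1 for both, at 105, 107 and 111 reads. The part of cell division in the lower Mybl1, S1pr2 and Gcsam was not tested.

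The MYB relatives of Mybl1 did not share 1 pattern. Myb itself had 332 reads with vehicle, 199 with 20(OH)D3 and 318 with 25(OH)D3, a ratio of 0.671 (0.560 to 0.802) for 20(OH)D3 and of 1.03 (0.878 to 1.20) for 25(OH)D3. Mybl2, the family member of dividing cells in general, had 77, 56 and 44 reads. Its ratio for 25(OH)D3 was 0.613 (0.413 to 0.899), so it was called lower there.

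Around S1pr2, the other receptors and signalling genes stayed within 1.5-fold in both comparisons with vehicle (11 of 11 past the read minimum). Most loci did so too, as 3.91% were called lower and 11.5% higher with 20(OH)D3, and 3.35% and 4.72% with 25(OH)D3. S1pr1, which carries lymphocytes out of the node, had 2278 reads with vehicle, 2013 with 20(OH)D3 and 2544 with 25(OH)D3, and a ratio of 1.20 (1.13 to 1.27) for 25(OH)D3. Gna13 had ratios of 0.900 (0.827 to 0.978) and 0.834 (0.767 to 0.908), and Arhgef1, an exchange factor gene downstream of it, of 0.765 and 1.02 for 20(OH)D3 and 25(OH)D3. Among receptors and ligands of follicle positioning, Gpr183, the oxysterol receptor that draws B cells to the outer follicle, had a ratio of 1.30 (1.16 to 1.45) for 25(OH)D3. Ch25h, an enzyme that makes the precursor of its ligand, was the 1 gene of 10 called lower for 20(OH)D3, with 80 and 45 reads. Of all loci 3.91% were called lower there.

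Around Bcl6, none of 5 corepressor genes was called. Of all loci 3.91% were called lower and 11.5% higher with 20(OH)D3, and 3.35% and 4.72% with 25(OH)D3. In a list this short, none called lies near those shares. Ncor1, which encodes a corepressor bound by BCL6, had a ratio of 0.808 for 20(OH)D3 and of 0.955 for 25(OH)D3. Prdm1 had 74, 57 and 72 reads in the vehicle, 20(OH)D3 and 25(OH)D3 libraries, and both intervals held 1. In the plasma cell list 1 of 7 genes was called lower for 25(OH)D3, beside 3.35% of all loci. That gene was Jchain, the joining chain of secreted antibodies, which had 396 reads with vehicle and 99 with 25(OH)D3. It had 422 reads with 20(OH)D3. The other MEF2 factors stayed within 1.5-fold, with ratios for 20(OH)D3 of 0.788 for Mef2a, 0.953 for Mef2c and 0.826 for Mef2d. For 25(OH)D3 these were 0.913, 0.936 and 0.966.

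Helper cell genes other than Pdcd1 were a list of 19, of which 16 had at least 50 reads. For 25(OH)D3 none was called in either direction, beside 3.35% of all loci called lower and 4.72% higher. The median log2 ratio was -0.01. For 20(OH)D3, 2 were called lower and 1 higher, beside 3.91% and 11.5% of all loci, with a median of -0.18. Cxcr5, the follicle-homing chemokine receptor of B cells and helper cells, had 1501 reads with vehicle, 1309 with 20(OH)D3 and 1501 with 25(OH)D3. Its ratios to vehicle were 0.976 (0.905 to 1.05) and 1.07 (0.998 to 1.15). Icos, the costimulator needed by helper cells, had ratios of 0.965 and 0.970. Sh2d1a, the SAP adaptor gene of helper cell contact with B cells, was the gene called higher for 20(OH)D3, with 99 and 138 reads and a ratio of 1.56 (1.20 to 2.04). Cd40lg, the helper ligand for CD40, and Lef1, a factor of naive T cells as well, were called lower, with ratios of 0.623 (0.438 to 0.878) and 0.630 (0.578 to 0.687). For 20(OH)D3 the median log2 ratio of the T cell markers was -0.22. Il21, the main helper cytokine of this cell, had 18, 11 and 12 reads, too few to show a difference.

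The partners of Fas and Pdcd1 were mostly within 1.5-fold. None of 9 genes of the FAS pathway was called against vehicle. Of all loci 3.91% were called lower and 11.5% higher with 20(OH)D3, and 3.35% and 4.72% with 25(OH)D3. Fasl, its ligand, had 23 reads with vehicle, 29 with 20(OH)D3 and 19 with 25(OH)D3, and both intervals held 1. Casp8, the initiator caspase, had ratios of 0.775 (0.705 to 0.852) and 0.979 (0.896 to 1.07). Cd274, which encodes the ligand PD-L1, had 593, 713 and 692 reads in the vehicle, 20(OH)D3 and 25(OH)D3 libraries, with ratios of 1.35 (1.20 to 1.503) and 1.252 (1.12 to 1.40). In the PD-1 list 1 gene of 9 was called lower for 20(OH)D3, beside 3.91% of all loci. It was Havcr2, the inhibitory receptor TIM-3, with 221 and 110 reads and a ratio of 0.557 (0.439 to 0.703).

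Follicular dendritic cells, the stromal cells that display antigen in the germinal centre, were followed by 10 markers, several of which B cells also express. Of 9 with at least 50 reads none was called for either compound against vehicle. Among all loci 3.91% were called lower and 11.5% higher with 20(OH)D3, and 3.35% and 4.72% with 25(OH)D3. Cxcl13, the follicle chemokine, had 2853, 2193 and 2966 reads in the vehicle, 20(OH)D3 and 25(OH)D3 libraries. The list summed to 26671, 23428 and 26010 normalized counts.

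Relatives of Rgs13 were read more deeply than Rgs13 itself. Of 8 other genes of the RGS family, none was called with 25(OH)D3, beside 3.35% of all loci called lower and 4.72% higher. With 20(OH)D3, 1 was called higher, near the share of 11.5% of all loci. That gene was Rgs2, which had 330 reads with vehicle, 477 with 20(OH)D3 and 450 with 25(OH)D3. Rgs1, which restrains the chemokine response of B cells, had 320, 209 and 296 reads and the lowest ratio to vehicle of the family for 20(OH)D3, at 0.731 (0.611 to 0.873). None of 10 transcription factors and cofactors of germinal centre B cells was called for either compound against vehicle. Among all loci 3.91% were called lower and 11.5% higher with 20(OH)D3, and 3.35% and 4.72% with 25(OH)D3. Of these factors Id3, an inhibitor of E proteins, had the highest ratios to vehicle, 1.49 and 1.33, from 481, 639 and 594 reads.

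Other cells of the node that can carry Fas or Pdcd1 were followed by their own markers. Markers of CD4 and regulatory T cells, 5 of 5 with reads, summed to 4269 normalized counts with vehicle, 3226 with 20(OH)D3 and 4254 with 25(OH)D3. The 5 CD8 T cell markers summed to 4973, 3862 and 5478. Macrophage markers, 8 of 8 with reads, summed to 6636, 10147 and 6349, and the 7 neutrophil markers to 190.3, 276 and 506. Epithelial markers were low, with sums of 91.9, 82.9 and 91.5 and no read of Krt5 in any library.

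Genes whose levels followed a member most closely over the 3 libraries were sought among 175 listed loci with at least 100 reads. The measure was the Euclidean distance between pairs of log2 ratios to vehicle. Mybl2 (distance 0.07) and Plk1 (0.09) were nearest to S1pr2, Rassf6 (0.16) and Exo1 (0.23) to Mybl1, and Exo1 (0.10) and Mybl2 (0.26) to Gcsam. Bcl6 lay nearest to Pdcd1lg2 (0.02) and Ncor1 (0.03), Fas to S1pr1 (0.05) and Sphk2 (0.07), and Pdcd1 to Cdk1 and Efnb1 (both 0.11). The Mef2b and Borcs8 locus lay nearest to Ms4a1 and Ebf1 (both 0.06). Of 12010 loci of that depth, 4 were as near to Mybl1 as Rassf6 was, 10 as near to S1pr2 as Mybl2, 13 as near to Gcsam as Exo1 and 39 as near to Bcl6 as Pdcd1lg2. For Fas 109 loci were as near as S1pr1, for Mef2b with Borcs8 342 were as near as Ms4a1, and for Pdcd1 428 were as near as Cdk1. In log2 these distances are smaller than the counting intervals of the members' ratios, such as 0.482 to 0.850 for S1pr2 with 25(OH)D3. The order of neighbours is therefore not resolved by these reads.

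The 250 bases before the RefSeq transcription starts (GRCm38.p6) of S1pr2, Gcsam and Bcl6 are shown because S1pr2 and Gcsam lie lower in the same libraries and because the product of Bcl6 represses transcription. Fas is added as a member that did not share that pattern. RefSeq gives Bcl6 a start at the edge of its locus and another inside it. The sequences were searched on both strands for TTCNNNGAA, a spaced palindrome of the kind that STAT factors and BCL6 bind, and for AGGTCA and GGTTCA, half-sites of nuclear receptors such as the vitamin D receptor. Matches of these are in capitals, and the motifs do not overlap in any of the windows printed. The windows are chr9:20976794-20977043 (minus strand) for S1pr2, chr16:45610190-45610439 (plus) for Gcsam, chr16:23988853-23989102 (minus) for the edge start and chr16:23981284-23981533 (minus) for the inner start of Bcl6, and chr19:34290409-34290658 (plus) for Fas.
S1pr2: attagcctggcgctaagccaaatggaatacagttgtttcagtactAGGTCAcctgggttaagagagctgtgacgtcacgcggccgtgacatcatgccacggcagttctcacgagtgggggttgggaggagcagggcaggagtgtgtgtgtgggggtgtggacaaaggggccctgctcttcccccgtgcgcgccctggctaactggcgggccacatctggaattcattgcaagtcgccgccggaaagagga
Gcsam: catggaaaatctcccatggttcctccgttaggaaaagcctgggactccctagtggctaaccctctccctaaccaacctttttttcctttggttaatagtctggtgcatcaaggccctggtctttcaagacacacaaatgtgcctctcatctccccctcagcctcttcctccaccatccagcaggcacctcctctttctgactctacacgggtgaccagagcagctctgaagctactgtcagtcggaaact
Bcl6, edge start: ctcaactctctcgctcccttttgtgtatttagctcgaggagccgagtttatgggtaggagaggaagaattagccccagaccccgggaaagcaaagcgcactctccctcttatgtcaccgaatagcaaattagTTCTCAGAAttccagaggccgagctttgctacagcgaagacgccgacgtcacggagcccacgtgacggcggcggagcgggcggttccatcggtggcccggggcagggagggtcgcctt
Bcl6, inner start: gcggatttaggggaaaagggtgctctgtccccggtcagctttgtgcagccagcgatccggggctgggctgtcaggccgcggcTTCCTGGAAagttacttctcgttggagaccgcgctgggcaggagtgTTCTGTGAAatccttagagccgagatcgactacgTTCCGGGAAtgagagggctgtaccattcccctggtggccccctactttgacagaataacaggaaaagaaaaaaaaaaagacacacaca
Fas: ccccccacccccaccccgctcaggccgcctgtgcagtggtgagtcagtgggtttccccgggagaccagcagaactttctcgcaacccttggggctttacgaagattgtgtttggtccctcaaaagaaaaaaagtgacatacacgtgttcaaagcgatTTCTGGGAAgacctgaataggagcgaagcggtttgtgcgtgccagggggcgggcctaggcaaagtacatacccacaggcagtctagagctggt

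TTCNNNGAA stood 3 times in the inner Bcl6 window, at 168, 122 and 88 bases before the start, once in the edge window, 118 bases before the start, and once in that of Fas, 93 bases before it. It was found in 7.01% of 32817 RefSeq promoter windows of the same length. S1pr2 held 1 match of AGGTCA, 205 bases before its start, a motif found in 14.0% of windows. The window of Pdcd1, searched but not printed, also held 1 match of AGGTCA, 41 bases before its start, and neither of the other motifs. Pdcd1 was not called lower in either treated library. The windows of Rgs13 and Mef2b, also not printed, held none of the motifs. GGTTCA, found in 8.84% of windows, was in none of the 5 printed. The Gcsam window held none of these letters. Of the 8 genes 7 had an entry in the promoter table, and Mybl1 did not. A match describes letters in a window and not a bound site.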

How the data were processed

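RNA-seq values of 3 mouse lymph node libraries were used, with the group of each taken from the agent in its label. The submitters' processing notes say that the tools were STAR (2.7.0c), Cuffdiff, Cuffnorm and Cufflinks (2.2.1) on GRCm38; settings, annotation release and strand use were not given in the sources used here. Deposited FPKM values are fragments scaled to transcript length and library size, per the file headers. The deposited normalized count signal, per the file headers named counts, consisted of whole multiples of 1 step per library (0.938, 1.05 and 1.01 for vehicle, 20(OH)D3 and 25(OH)D3), within 0.02 for 99.9% of loci with reads in each library. Division by the step gave the reads.

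Starts in the table count from 0 and are given here from 1, as 6 of the 8 locus starts then equal a GENCODE M21 gene start. Of 205 listed symbols 204 were found, and the other was not analysed here. Results of 2 further genes are not reported here, and both were left out of the list counts after their values were seen. Intervals are Clopper-Pearson for ratios, conditional on the summed reads, and were checked on simulated counts (scipy 1.17.1). Intervals of ratios to marker sums take the sum as fixed. Without molecular identifiers reads are not independent molecules. The members and all 23 other lists were chosen with earlier results of these data known. Text names all members and, from the other lists, only genes past 1.5-fold, at the ends of a list or direct partners, not every such gene; Ncor1, Cxcl13 and Nuggc were chosen after their values were seen. Alternatives were pseudocounts of 0.1, 1 and 5 FPKM, read minimums of 1 and 200, a difference of 25% or 2-fold, and other library scalings.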

Additional observations from a re-analysis of the deposited data

How the results depend on the processing

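The number of members past the threshold depended on the scale and the fold. For 25(OH)D3 against vehicle, 3 members were past 1.5-fold, and 0 were with log2(FPKM + 1), with log2(FPKM + 5) or at 2-fold. With FPKM as deposited or a pseudocount of 0.1 FPKM 2 were (S1pr2 and Mybl1), and at 200 reads 2 were (S1pr2 and Gcsam). For 20(OH)D3 against vehicle 1 member was, and 0 were with a pseudocount of 0.1, 1 or 5 FPKM, with FPKM as deposited, at 200 reads, at 2-fold, or per unit of B cell markers; 2 were (Mybl1 and Gcsam) with upper quartile scaling and 3 at a difference of 25%. Between the compounds 0 were, and 3 were at 25% (S1pr2, Mybl1 and Rgs13) and 1 per unit of B cell markers (Rgs13). A pseudocount compresses the ratios of low genes, and the cause of the other changes was not tested. FPKM as deposited, B cell markers as the divisor of the counts and medians, T cell markers as the divisor of members other than Pdcd1, and the omission of the Mef2b locus were added after the data were seen. S1pr2, Mybl1 and Gcsam stayed below vehicle for 25(OH)D3 in 9 of 9 alternatives each, with log2 ratios of -0.70 to -0.30, -1.04 to -0.20 and -0.85 to -0.26. All of these alternatives reuse the same libraries. A pseudocount cannot change the sign of an FPKM ratio, nor can a sum of rows that of a count ratio here. Using FPKM in place of counts can, as for Fas between the compounds (log2 ratio -0.21 by counts, 0.002 by FPKM). FPKM comes from the same reads, however. The other scalings and the B cell marker divisor shifted every log2 ratio by only -0.06 to -0.03. The kept signs therefore add no evidence for a difference. The median log2 ratio over members kept its sign in each alternative run but moved in size: from -0.19 to between -0.31 and -0.04 for 20(OH)D3 against vehicle, from -0.06 to between -0.12 and -0.04 for 25(OH)D3, and from 0.19 to between 0.02 (at 200 reads) and 0.40 (per unit of B cell markers) between the compounds. Each member has 1 row, so summing rows changed nothing. No replicate could be left out. No paired analysis was possible because each group has 1 library. Rgs13, at 34 reads, and Nuggc, at 38, are limited most by depth.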

Other observations

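For a few genes the deposited FPKM and the counts part ways. The length implied by both values was 3539 bases for Gcsam with vehicle, 3299 with 20(OH)D3 and 2869 with 25(OH)D3, where the annotated transcripts measure 1796 and 3315 bases. For Mybl1 it was 5135, 4563 and 4286 bases, with a longest annotated transcript of 4980 bases. For Bcl6 it stayed between 3628 and 3791 bases. For Pdcd1, with 1 annotated transcript, it was 1973.8, 1928.5 and 1887.9 bases in the same order of libraries. Its ratios to vehicle were nearly the same by counts and by FPKM (1.226 and 1.227 for 20(OH)D3, 1.117 and 1.120 for 25(OH)D3). Its small fall comes from the rising totals of normalized counts in the calculation of length, which act on every locus. Exo1 had fewer reads with 20(OH)D3 than with vehicle (31 and 54) and yet a higher FPKM (4.59 and 1.92).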
